A study of Mus musculus with 6 samples.

Results

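The genes described here are 10 mitochondrial fusion genes and inner-membrane proteases: the mitofusins *Mfn1* and *Mfn2*, the inner-membrane fusion GTPase *Opa1*, the proteases *Oma1*, *Yme1l1*, *Afg3l2*, *Spg7* and *Parl*, and the membrane scaffolds *Phb2* and *Stoml2*. They were taken by symbol from the 27179 genes of the count files, and all 10 were present and passed the filter on low counts. The set was selected partly on measured values, because *Mfn2* and *Spg7* were lower in miDrp1KO muscle, so the differences between genotypes given below are a description of the libraries. No p-value is given for a single gene of the set, and the counts of genes past a threshold serve only to set them beside all genes.

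Mitochondria fuse in 2 steps. The mitofusins join the outer membranes of neighbouring organelles, and Opa1 then joins the inner membranes, while the dynamin-related GTPase Drp1, encoded by *Dnm1l*, does the opposite work of fission. Opa1 is active as a mixture of long and short forms: Oma1 and the i-AAA protease Yme1l1 cut it, and the m-AAA protease, built from Afg3l2, paraplegin (Spg7) and, in mice, Afg3l1 in varying combinations, degrades damaged inner-membrane proteins and takes part in the control of Oma1. Prohibitin and stomatin-like rings hold these enzymes in the membrane. In skeletal muscle, whose fibres are packed with mitochondria, loss of mitofusins is known to disturb mitochondrial DNA and muscle growth.

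RNA of quadriceps muscle was sequenced from 3 control mice (libraries B, C and D) and 3 miDrp1KO mice (libraries A, E and F), 3 weeks after *Dnm1l* deletion, to ask what acute loss of Drp1 does in adult muscle. The miDrp1KO mice carried floxed *Dnm1l* and HSA-MerCreMer, a tamoxifen-inducible Cre recombinase driven by the human skeletal actin (*ACTA1*) promoter, which acts in muscle fibres and leaves *Dnm1l* intact in the other cells of the muscle. Controls were floxed mice. Cre was not stated for them, so its presence and the deletion cannot be told apart. According to the methods of the study, mice of both genotypes were given tamoxifen on 4 days, 50 mg/kg each day, at an age of 3 months. The sample labels give normal chow for all 6. *Dnm1l* itself stood at 156, 114 and 140 CPM in controls (libraries always in the order B, C, D) and at 70.6, 81.3 and 66.2 CPM in miDrp1KO (A, E, F), with no overlap between genotypes. CPM is the share of a library's counts that a gene took, scaled to a fixed total and adjusted between libraries by the TMM method.

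The libraries held 13989588 to 62042255 counts in controls and 20028624 to 28829756 in miDrp1KO, and counts of ribosomal RNA took 3.36 to 15.6% of the control and 1.48 to 24.4% of the miDrp1KO libraries. The 9 skeletal muscle markers (*Acta1*, *Ckm*, *Myh4*, *Myh1*, *Myh2*, *Tnnt3*, *Ttn*, *Pvalb*, *Mb*) were all present. Their summed level was 227000 to 285000 CPM in controls and 104000 to 213000 CPM in miDrp1KO, without overlap, and 7 of the 9 were lower in miDrp1KO by their means. *Pvalb* (means of 7500 CPM in controls and 7650 CPM in miDrp1KO) and *Mb* (2450 and 3890 CPM) were not lower. The 6 adipose markers summed to 186 to 395 CPM in controls and 70.4 to 181 CPM in miDrp1KO, also without overlap. Summed markers of slow fibres ran from 72.9 to 480 CPM and from 99.5 to 793 CPM, those of macrophages from 125 to 236 and from 205 to 216 CPM, of endothelium from 159 to 290 and from 162 to 259 CPM, of fibroblasts from 1100 to 1560 and from 1250 to 1940 CPM, and of peripheral nerve from 35.6 to 49.9 and from 39.6 to 70.8 CPM, in controls and miDrp1KO respectively. The 4 blood markers found ran from 47.2 to 272 and from 73.1 to 231 CPM, and satellite cell markers from 3.55 to 4.31 and from 3.35 to 6.94 CPM, in the same order. Control B held the highest control sums of slow-fibre (480 CPM) and blood (272 CPM) markers. No marker in these lists was at 0. In whole muscle, fewer fibres, less RNA per fibre and a change in single marker genes cannot be told apart.

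The promoters of the genes whose levels differed most between genotypes, *Mfn2* and *Spg7*, are shown with that of *Mfn1*, the paralogue of *Mfn2*, because the mitofusins differed from each other in level. Each window runs from 250 bases before to 50 bases after a RefSeq transcription start (GRCm38.p6, written 5′ to 3′ on the strand of the gene). Capitals mark matches, on either strand, to TGACG (the CRE half-site bound by CREB-family factors) and GGGCGG (the core bound by SP1).
*Mfn2*, chr4:147904649-147904948, minus strand: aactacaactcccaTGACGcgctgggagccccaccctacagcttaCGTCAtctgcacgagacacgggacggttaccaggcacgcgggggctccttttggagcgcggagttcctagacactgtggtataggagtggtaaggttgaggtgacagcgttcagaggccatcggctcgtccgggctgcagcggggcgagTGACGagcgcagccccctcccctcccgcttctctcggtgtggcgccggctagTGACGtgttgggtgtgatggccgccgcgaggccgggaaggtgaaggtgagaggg
*Mfn1*, chr3:32529232-32529531, plus strand: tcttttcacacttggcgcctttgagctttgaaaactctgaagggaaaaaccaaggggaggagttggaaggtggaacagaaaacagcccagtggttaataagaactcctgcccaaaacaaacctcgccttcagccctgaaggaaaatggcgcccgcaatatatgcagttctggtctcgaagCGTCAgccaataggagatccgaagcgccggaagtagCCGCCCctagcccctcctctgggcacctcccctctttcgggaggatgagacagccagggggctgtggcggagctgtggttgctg
*Spg7*, chr8:123065258-123065557, plus strand: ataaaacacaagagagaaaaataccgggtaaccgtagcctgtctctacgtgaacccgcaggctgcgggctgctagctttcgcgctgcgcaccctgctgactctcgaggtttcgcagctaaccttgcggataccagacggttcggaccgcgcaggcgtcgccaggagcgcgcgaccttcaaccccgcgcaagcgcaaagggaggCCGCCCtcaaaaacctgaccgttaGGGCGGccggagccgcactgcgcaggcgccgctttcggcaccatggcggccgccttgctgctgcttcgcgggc

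Windows were found for 9 of the 10 genes, 11 windows in all, since *Mfn2* has 3 starts whose windows overlap and share bases. The *Mfn2* window shown holds TGACG 4 times, and its other windows hold it 3 times each. *Mfn1*, *Yme1l1*, *Stoml2* and *Oma1* hold it once, and the windows of *Opa1*, *Spg7*, *Phb2* and *Parl* hold none. Of 32851 windows of the same length over all genes, 20.8% hold TGACG at least once and 1.03% hold it 3 or more times. GC content ran from 52.3% (*Parl*) to 67.3% (an *Mfn2* window), against a median of 52.7% over all windows, and CpG numbered 12 to 36 per window, against a median of 7. GGGCGG was found in 8 of the 9 genes, not in *Parl*, and in 35.7% of all windows. It was present in only 1 of the 3 *Mfn2* windows, and not in the one shown. GCGCATGC, a short form of the site of the nuclear respiratory factor NRF1, was found in *Opa1* only, as overlapping matches on the opposite strands of a palindrome, and in 2.71% of all windows. The full CRE (TGACGTCA), the NBRE bound by NR4A receptors (AAAGGTCA) and the site of the estrogen-related receptors (CAAGGTCA) were in none of the 11 windows, and in 1.79%, 1.51% and 1.56% of all windows. All motifs were searched on both strands. TGACG is contained in TGACGTCA, and no other motif in the set contains another. A match is a run of letters, and binding was not measured.

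*Mfn2* was lower and *Mfn1* less so. *Mfn2*, the mitofusin that also tethers mitochondria to the endoplasmic reticulum, stood at 327, 176 and 235 CPM in controls and at 121, 138 and 130 CPM in miDrp1KO. Every miDrp1KO library lay below every control library, with 37.9 CPM between the nearest, and the controls spread far more (246 ± 76.2 CPM, SD, n = 3) than the miDrp1KO libraries (130 ± 8.28 CPM, n = 3). The fitted difference was a log2 fold change of -0.92 (SE 0.23), a level 0.527 times that of controls. Control B was the highest of the 6 libraries. Without it the log2 fold change was -0.64, and without control C it was -1.14.

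*Mfn1*, which drives outer-membrane fusion with the stronger GTPase activity of the pair, stood at 201, 119 and 182 CPM in controls and 124, 135 and 146 CPM in miDrp1KO. The genotypes overlapped, since control C was below all of the miDrp1KO libraries, and the log2 fold change was -0.31 (SE 0.21), which became -0.14 without control B and -0.52 without control C. Within the controls, *Mfn1* and *Mfn2* took the same order of libraries, B above D above C.

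*Opa1*, the dynamin-family GTPase of the inner membrane, stood at 176, 118 and 148 CPM in controls and 131, 129 and 110 CPM in miDrp1KO. Control C lay among the miDrp1KO libraries, so that the genotypes overlapped. The log2 fold change was -0.25 (SE 0.19), and it was -0.09 without control B and -0.41 without control C.

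**Figure D1:**
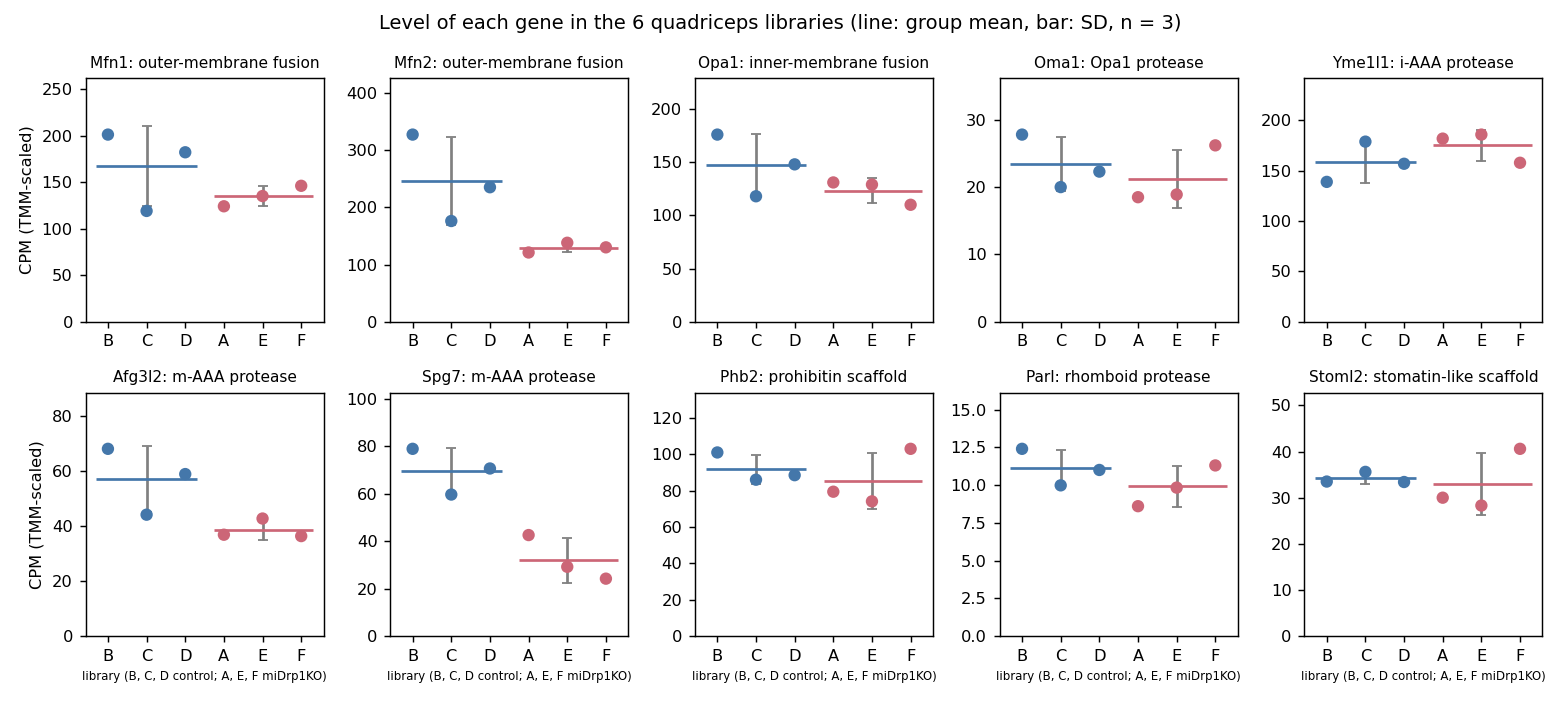
TMM-scaled CPM of each gene (vertical axis, from 0) in the 3 control (blue) and 3 miDrp1KO (red) libraries (horizontal axis), with group means as lines and SD as bars. Only *Mfn2*, *Afg3l2* and *Spg7* have every miDrp1KO library below every control library, and control C is the lowest control in 8 of the 10 genes.

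Of the m-AAA protease, *Spg7* and *Afg3l2* had lower levels in miDrp1KO. *Spg7*, which encodes paraplegin, stood at 79.0, 59.7 and 70.7 CPM in controls and at 42.6, 29.2 and 24.2 CPM in miDrp1KO. The nearest libraries, control C and miDrp1KO A, were 17.1 CPM apart, and the spread was alike in both genotypes (69.8 ± 9.68 and 32.0 ± 9.53 CPM, SD, n = 3 each). The log2 fold change was -1.13 (SE 0.22), a level 0.458 times that of controls and the lowest fold among the 10 genes. It ran from -0.94 without miDrp1KO F to -1.36 without miDrp1KO A.

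*Afg3l2*, a subunit that can also form the protease without paraplegin, stood at 68.2, 44.2 and 59.0 CPM in controls and at 36.9, 42.8 and 36.4 CPM in miDrp1KO. The genotypes were separated by only 1.46 CPM, between control C and miDrp1KO E. The log2 fold change was -0.56 (SE 0.19), a level 0.677 times that of controls. Next after these 3 genes came *Mfn1*, whose libraries overlapped.

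*Yme1l1*, the i-AAA protease that cuts Opa1 constitutively, was the only one of the 10 with a higher mean in miDrp1KO. It stood at 139, 179 and 157 CPM in controls and at 182, 186 and 158 CPM in miDrp1KO, with overlap, and its log2 fold change was 0.15 (SE 0.18). Its order among controls was the reverse of that of the fusion genes, with C highest and B lowest. *Oma1*, the stress-activated protease that cuts Opa1 when the membrane potential is lost, stood at 27.8, 20.0 and 22.3 CPM in controls and 18.5, 18.9 and 26.2 CPM in miDrp1KO, a log2 fold change of -0.14 (SE 0.19) that turned to 0.022 without control B.

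*Parl*, the rhomboid protease that cleaves Pink1 within the inner membrane, was the least abundant, at 12.4, 9.98 and 11.0 CPM in controls and 8.60, 9.83 and 11.3 CPM in miDrp1KO, with overlap. *Phb2*, a subunit of the prohibitin ring, stood at 101, 86.0 and 88.5 CPM and at 79.4, 74.1 and 103 CPM. *Stoml2*, a cardiolipin-binding scaffold that holds Yme1l1 and Parl, stood at 33.5, 35.6 and 33.4 CPM and at 30.0, 28.3 and 40.6 CPM. In *Phb2*, *Stoml2*, *Oma1*, *Parl* and *Mfn1*, miDrp1KO F was the highest miDrp1KO library, whereas in *Spg7*, *Afg3l2*, *Opa1* and *Yme1l1* it was the lowest. The log2 fold changes were -0.17 (SE 0.18) for *Parl*, -0.10 (SE 0.18) for *Phb2* and -0.05 (SE 0.17) for *Stoml2*, the last turning to 0.044 under upper-quartile scaling.

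The count of calls was read against all genes. At an adjusted p under 0.05 (edgeR quasi-likelihood test, Benjamini-Hochberg over 16483 genes), 0 of the 10 genes were called and 0.0121% of all genes were. At an unadjusted p under 0.05, 3 of the 10 passed, *Mfn2*, *Afg3l2* and *Spg7*, all lower, beside 10.9% of all genes in either direction and 6.22% in that direction. By DESeq2, 7 of the 10 had an adjusted p and *Mfn2* and *Spg7* were called, beside 4.23% of the 2860 genes with one. By limma voom 0 of the 10 were called, beside 0.00607% of all genes. Libraries did not overlap, with miDrp1KO lower, in 3 of the 10 genes and in 10.3% of all genes, and with miDrp1KO higher in 0 of the 10 and in 7.67%. Nothing is read from these counts, because the same contrast helped to choose the genes. By sign, 9 of the 10 were lower, 8 under upper-quartile scaling, and their median log2 fold change was -0.21 against 0.02 over all tested genes. That median was -0.076 without control B and -0.34 without control C.

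The summed muscle markers were also lower in miDrp1KO. In miDrp1KO A, E and F their sum stood at 213000, 132000 and 104000 CPM. *Spg7* took the same order of these libraries, and *Mfn2* did not. Divided by that sum in the same library, *Mfn2* stood at 1.19, 0.776 and 0.823 CPM per 1000 CPM of muscle markers in controls and at 0.570, 1.04 and 1.25 in miDrp1KO, so that the genotypes overlapped. *Spg7* stood at 0.286, 0.263 and 0.248 against 0.200, 0.221 and 0.233, still without overlap, and *Yme1l1* at 0.503, 0.790 and 0.550 against 0.852, 1.41 and 1.52, higher without overlap. On this scale the log2 ratio of means was 0.038 for *Mfn2* and -0.29 for *Spg7*, and 8 of the 10 genes turned from lower to higher in miDrp1KO. The scale moved every gene: the median of all 16483 genes went from 0.02 to 0.94, and 9 of the 10 genes, *Yme1l1* apart, lay below that median. *Afg3l2* overlapped between genotypes on this scale. *Ttn* and *Myh4* made up most of the sum, at means of 123000 and 57000 CPM in controls and 65600 and 23300 CPM in miDrp1KO. The part of muscle content in the differences was not tested.

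With the slow-fibre score of each library as a covariate, the log2 fold changes were -1.1 for *Mfn2*, -1.1 for *Spg7* and -0.67 for *Afg3l2*. With the share of ribosomal RNA as a covariate they were -0.95, -1.2 and -0.54. Each stayed lower in miDrp1KO, in the same 6 libraries that helped to choose the genes. The parts of fibre type and of ribosomal RNA in the differences were not tested by these fits.

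**Figure D2:**
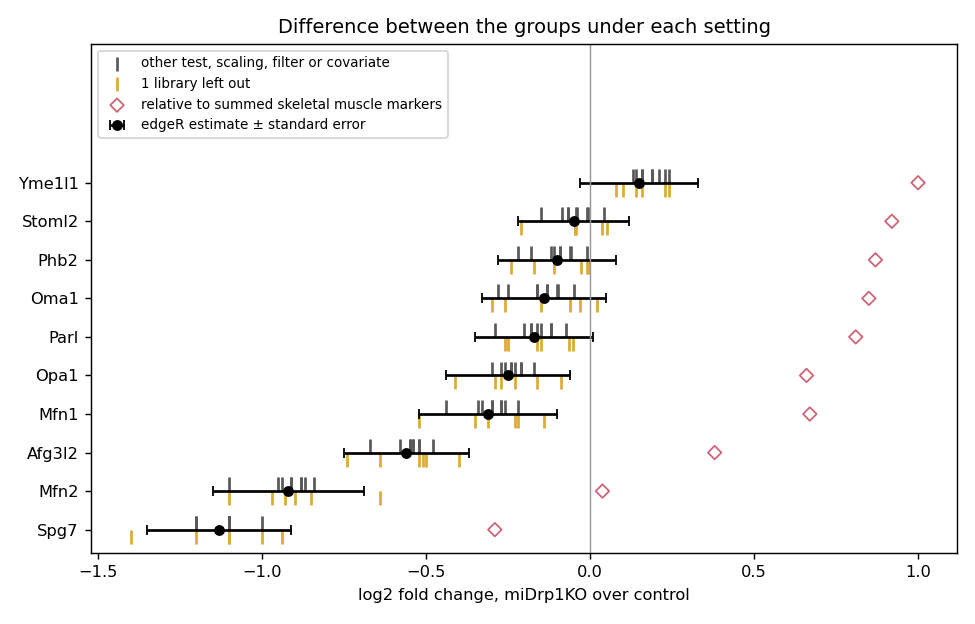
Log2 fold change of miDrp1KO over control (horizontal axis) for each gene: edgeR estimate with a standard error taken from its test statistic (black), estimates under another test, scaling, filter or covariate (grey), with 1 library left out (yellow), and relative to the summed skeletal muscle markers (red diamonds). *Spg7*, *Mfn2* and *Afg3l2* lie to the left of 0 in black, grey and yellow, whereas on the muscle-marker scale only *Spg7* does, where the median of all genes is itself at 0.94.

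Ratios within a library do not depend on its scaling. Per kilobase of exon, *Mfn2* was 1.91, 1.74 and 1.52 times *Mfn1* in controls and 1.15, 1.20 and 1.04 times in miDrp1KO. The mitofusins thus lay closer together in every miDrp1KO library than in any control library, and the log2 ratio was 0.78 ± 0.17 and 0.18 ± 0.10 (SD, n = 3 each). *Mfn2* was nevertheless above *Mfn1* in 6 of 6 libraries.

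*Spg7* was 2.53, 2.95 and 2.62 times *Afg3l2* in controls and 2.53, 1.49 and 1.45 times in miDrp1KO. Here miDrp1KO A stood at the level of control B, and E and F stood apart from the controls (log2 ratio 1.43 ± 0.12 and 0.82 ± 0.45, SD, n = 3 each). Within miDrp1KO, the marker sums split the same libraries. Slow-fibre markers summed to 99.5, 793 and 713 CPM in miDrp1KO A, E and F, and skeletal muscle markers to 213000, 132000 and 104000 CPM. Control B, with 480 CPM of slow-fibre markers against 72.9 and 107 CPM in C and D, had the same ratio as miDrp1KO A. The part of fibre content in this ratio was not tested. *Opa1* was 0.354, 0.441 and 0.416 times *Mfn2* in controls and 0.709, 0.618 and 0.561 times in miDrp1KO, higher in each miDrp1KO library than in any control. The ratio of *Oma1* to *Yme1l1*, the enzymes that cut Opa1, overlapped, at 0.749, 0.416 and 0.530 in controls and 0.381, 0.380 and 0.617 in miDrp1KO. These ratios use the contrast by which *Mfn2* and *Spg7* were chosen, so they have no test.

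**Figure D3:**
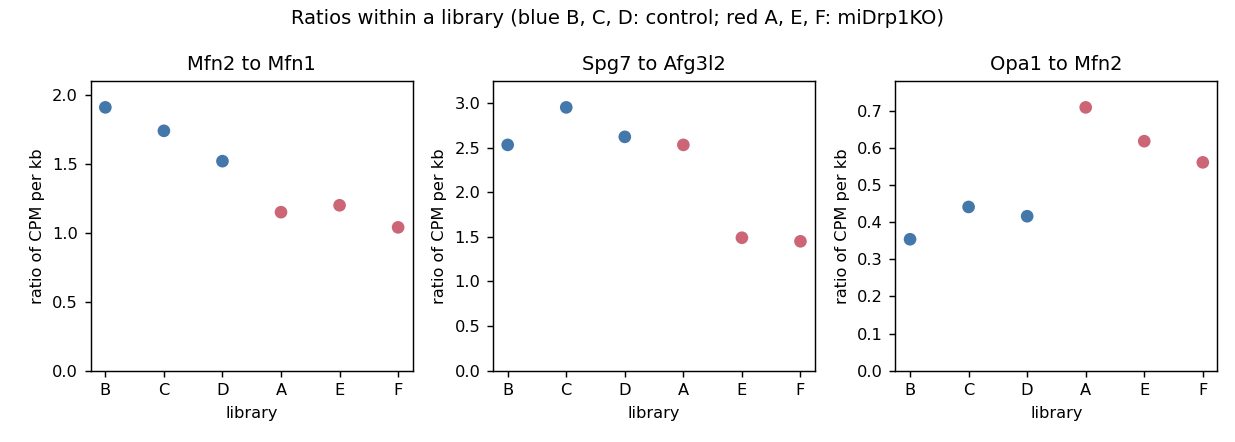
Ratio of levels per kilobase of exon (vertical axes, from 0) of *Mfn2* to *Mfn1*, *Spg7* to *Afg3l2* and *Opa1* to *Mfn2* in each control (blue) and miDrp1KO (red) library (horizontal axes). The first falls between 1.52 and 1.91 in controls and between 1.04 and 1.20 in miDrp1KO; in the second, miDrp1KO A stands with the controls at 2.53.

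The order of levels was taken within each library. Averages over both genotypes hold the low miDrp1KO values of *Mfn2* and *Spg7* by which these were chosen, so their places are a description. Per kilobase of exon and averaged over the 6 libraries, *Mfn2* was the most abundant (36.2 CPM per kb), followed by *Mfn1* (24.7), *Phb2* (23.9), *Yme1l1* (20.8) and *Opa1* (17.2). *Spg7* (11.3), *Stoml2* (11.1) and *Oma1* (10.4) formed a middle group, and *Afg3l2* (4.85) and *Parl* (2.70) were the least abundant. The control means gave the same order, whereas in the miDrp1KO means *Spg7* (7.09) stood below *Stoml2* (10.9) and *Oma1* (9.89), and *Phb2* above *Mfn1*. Of the 9 pairs of neighbours, 4 stood in this order in 6 of 6 libraries: *Mfn2* over *Mfn1*, *Opa1* over *Spg7*, *Oma1* over *Afg3l2* (mean ratio 2.18) and *Afg3l2* over *Parl* (mean ratio 1.76). The pairs with *Mfn2* or *Spg7* are given without a test. *Oma1* over *Afg3l2* and *Afg3l2* over *Parl* each gave p = 0.0312 by the two-sided exact sign-flip test over the 6 libraries, the smallest that 6 libraries can give, and 0.0938 after adjustment over the 6 pairs without *Mfn2* or *Spg7*, which cannot reach the threshold with so few pairs at that smallest value. The neighbours were set by the means of the same 6 libraries, so nothing is concluded from these p-values. *Mfn1* was above *Phb2* in 3 of 6 libraries, *Phb2* above *Yme1l1* in 4, and *Yme1l1* above *Opa1* and *Stoml2* above *Oma1* in 5 each. None of the 6 pairs tested passed the threshold after adjustment. *Spg7* was above *Stoml2* in the 3 controls and below it in the 3 miDrp1KO libraries.

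**Figure D4:**
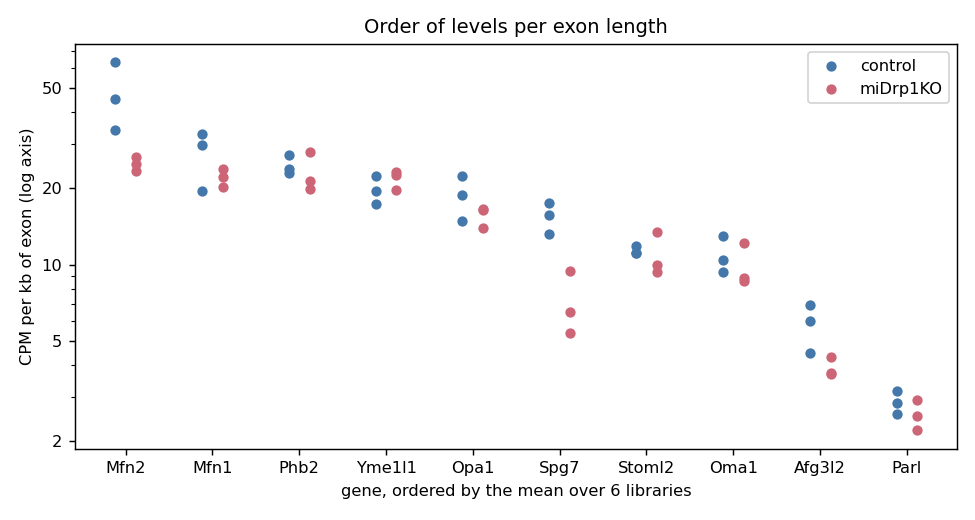
CPM per kilobase of exon on a log axis (vertical) for each gene (horizontal axis, ordered by the mean over 6 libraries), in control (blue) and miDrp1KO (red) libraries. Levels run from a mean of 36.2 for *Mfn2* to 2.70 for *Parl*, and the red points of *Spg7* reach below those of *Stoml2* and *Oma1*, which come after it in the order.

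Counts of the 10 genes ran from 137 (*Parl* in control C) to 14100 (*Mfn2* in control D), so that the counting error at the lowest was 8.54%. The variation between mice that edgeR estimated, as a biological coefficient of variation, was 18.8 to 22.4% for the 10 genes, with a median of 19.9% against 22.7% over all tested genes. For each of the 10 genes this exceeded the counting error.

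On the GRCm38 annotation, *Mfn1* lies at chr3:32529465-32579239, *Opa1* at chr16:29579334-29654884, *Parl* at chr16:20279818-20302387, *Yme1l1* at chr2:23156369-23199260 and *Oma1* at chr4:103313812-103371868, with no overlapping gene. *Mfn2*, at chr4:147873599-147904704, contains the processed pseudogene *Gm13156* on the other strand. *Spg7*, at chr8:123062942-123097760, overlaps the coding locus *Gm20388* on its own strand. *Phb2*, at chr6:124712336-124716950, overlaps the snoRNA *Gm23547* and the antisense gene *Gm15884*, and *Stoml2*, at chr4:43027690-43031710, the noncoding RNA *Gm26643* on the other strand. None of these 5 overlapping genes was listed under its symbol in the files. How reads shared between overlapping genes were counted was not given in the sources used here, so the levels of *Mfn2*, *Spg7*, *Phb2* and *Stoml2* are uncertain to that extent. *Afg3l2* overlaps no annotated gene.

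Genes around these 10 were read from 3 wider lists. Of 18 other regulators of fusion, of the mitofusins or of Opa1, 17 passed the filter on low counts, 10 lower and 7 higher. Their median difference was -0.11 on the log2 scale (-0.21 without control C and -0.016 under upper-quartile scaling), and libraries did not overlap in 5 of the lower genes (*Vcp*, *Pink1*, *Marchf5*, *Usp30* and *Ghitm*) and 1 of the higher (*Chchd2*), beside 10.3% and 7.67% of all genes. None was called by edgeR (lowest adjusted p over the 3 lists, 0.362), and 3, *Vcp*, *Pink1* and *Marchf5*, all lower, passed an unadjusted p under 0.05, beside 6.22% of all genes. *Vcp*, the ATPase that extracts ubiquitinated mitofusins from the membrane, stood at 150, 151 and 153 CPM in controls and 133, 95.2 and 73.6 CPM in miDrp1KO (log2 fold change -0.59, SE 0.22), without overlap. *Pink1*, the kinase that starts mitophagy, stood at 489, 448 and 425 CPM and at 364, 287 and 319 CPM (-0.49, SE 0.19), likewise without overlap. *Ghitm*, an inner-membrane partner of the m-AAA protease, differed by -0.17 (SE 0.17) on the log2 scale.

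Of 23 other mitochondrial proteases and their partners, 11 were lower and 12 higher, and the median of 0.01 changed sign under DESeq2, limma voom and both covariates. None was called by edgeR, 4 lower (*Lonp1*, *Lactb*, *Pmpca* and *Afg3l1*) and 3 higher (*Immp2l*, *Dnajc19* and *Romo1*) passed an unadjusted p under 0.05, beside 10.9% of all genes in either direction. Libraries did not overlap in 7 of the lower and 4 of the higher genes (*Immp2l*, *Dnajc19*, *Romo1* and *Maip1*), beside 10.3% and 7.67% of all genes. *Lonp1*, the AAA protease of the matrix, stood at 83.1, 59.2 and 75.9 CPM in controls and 49.7, 41.0 and 41.0 CPM in miDrp1KO (log2 fold change -0.73, SE 0.18), and *Lactb*, a serine protease of the intermembrane space, at 41.7, 32.7 and 36.3 CPM and at 30.0, 22.4 and 20.4 CPM (-0.60, SE 0.18). *Immp2l*, a subunit of the inner-membrane signal peptidase, was higher, at 5.11, 3.35 and 3.48 CPM in controls and 6.27, 8.36 and 8.11 CPM in miDrp1KO (0.93, SE 0.23). The genotypes did not overlap in any of these 3 genes. *Afg3l1*, the mouse paralogue of *Afg3l2*, stood at 29.3, 23.6 and 26.2 CPM and at 21.3, 17.6 and 17.7 CPM (-0.49, SE 0.16). *Phb*, the partner of *Phb2* in the prohibitin ring, differed by 0.27 (SE 0.21), with miDrp1KO F highest at 81.0 CPM.

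Of 13 fission genes, 8 were lower and 5 higher (median -0.05, and 0.033 under upper-quartile scaling), and none was called by edgeR, with 1 lower, the deleted gene *Dnm1l* itself, and 0 higher at an unadjusted p under 0.05, beside 10.9% of all genes in either direction. Libraries did not overlap in 2 of the lower genes (*Dnm1l* and *Dnm2*) and 1 of the higher (*Mtfr2*), shares near the 10.3% and 7.67% of all genes. Besides *Dnm1l* (log2 fold change -0.91, SE 0.18), *Gdap1* differed by -0.37 (SE 0.23) and *Dnm2*, a dynamin of membrane scission, by -0.28 (SE 0.15).

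**Figure D5:**
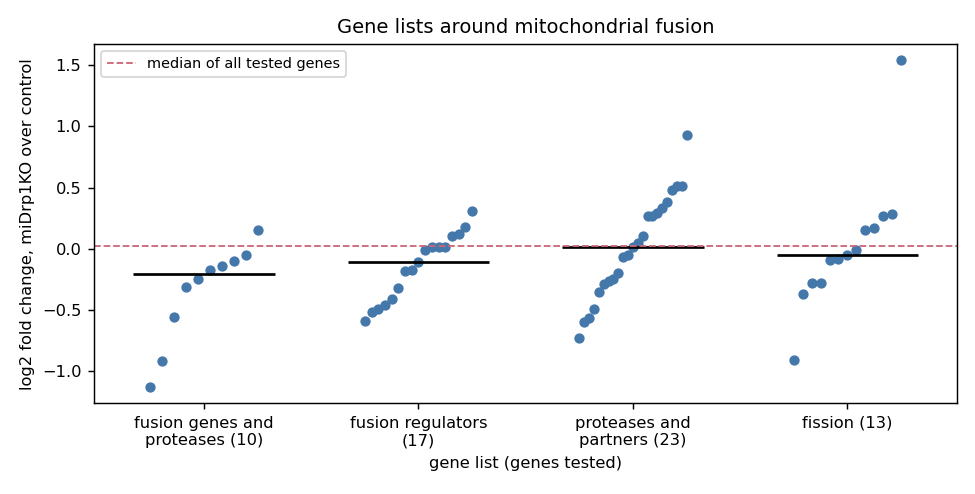
Log2 fold change of miDrp1KO over control (vertical axis) for each tested gene (points) of the 10 fusion genes and proteases, 17 fusion regulators, 23 proteases and partners and 13 fission genes (horizontal axis), with list medians as black lines. The medians are -0.21, -0.11, 0.01 and -0.05, beside 0.02 for all tested genes (dashed); the highest point, in the fission list, is *Mtfr2* at means of 0.165 and 0.494 CPM.

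The genes whose pattern over the 6 libraries was most like *Mfn2*, among 7177 with a mean of at least 10 CPM, were *Pdha1* (Pearson r of log2 CPM 0.990), which encodes a subunit of pyruvate dehydrogenase, *Sh3bp5* (0.984), *Sdha* (0.981), the flavoprotein of succinate dehydrogenase, *Timm44* (0.981), of the mitochondrial import motor, and *U2af2* (0.981), a splicing factor. *Sdha* stood at a mean of 579 CPM in controls and 316 CPM in miDrp1KO. Most like *Spg7* were *Pacs2* (0.996), *Usp4* (0.996), *Ash2l* (0.995), *Supt5* (0.994) and *Polg* (0.993), the last encoding the polymerase of mitochondrial DNA. The 2 sets shared no gene. The points share 6 libraries in 2 genotypes, so the difference between genotypes and the scaling of each library enter every r.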

How the data were processed

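RNA of quadriceps muscle was measured in 3 control and 3 miDrp1KO mice, grouped by the genotype given for each sample. The authors prepared stranded total RNA libraries after ribosomal RNA depletion, sequenced them in pools, aligned reads to GRCm38, counted them with Rsubread and deposited, for each library, a file of raw counts by gene, without normalization. FastQC and DESeq2 1.30.0 are named in the submitters' processing notes. Which library was in which pool and the counting of overlapping genes were not given in the sources used here. Of 27179 genes, 874 had no symbol. No sample was left out. Each library is a separate mouse as far as the labels state, and p-values measure the spread between these samples.

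The test was the edgeR 4.0.16 quasi-likelihood test in R 4.3.3 (TMM, filterByExpr, robust fit, Benjamini-Hochberg over 16483 genes, threshold 0.05). DESeq2 1.42.0 and limma 3.58.1 (voom) were alternatives, with other scalings, filters, covariates and each library left out. The SE of a log2 fold change is its size divided by the square root of the F statistic of the edgeR test. The fits were tested on simulated data. CPM are TMM-scaled, and levels per kilobase use the union of exons in GENCODE vM21, matched by Entrez identifier. Neighbours in the order of levels were compared with a two-sided exact sign-flip test, given only for pairs without *Mfn2* or *Spg7*. Promoter windows are from RefSeq (GRCm38.p6).

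The 10 genes, the gene and marker lists and the tests were chosen with earlier results of these data known. Of each wider list, the 3 genes with the largest log2 fold change in size at a mean of at least 5 CPM are named, apart from 1 gene that is not reported here, with *Phb*, *Afg3l1* and *Ghitm* as partners and, chosen after their values were seen, *Mtfr2*, genes that passed an unadjusted p and, in counts of 5 or fewer, genes that did not overlap. The 5 most similar genes are by Pearson r (prior count 2, a mean of at least 10 CPM and a symbol). The ratios of *Oma1* to *Yme1l1* and of *Opa1* to *Mfn2* and the scale of muscle markers were added after seeing the data.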

Additional observations from a re-analysis of the deposited data

How the results depend on the processing

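Under each of 15 other tests, scalings, filters, covariates or sets of libraries, *Mfn1*, *Mfn2*, *Opa1*, *Afg3l2*, *Spg7*, *Phb2* and *Parl* were lower and *Yme1l1* higher. With 1 library left out, *Phb2* (-0.10) reached -0.0043 without miDrp1KO E, *Parl* (-0.17) -0.052 without miDrp1KO A and *Yme1l1* (0.15) 0.08 without control B. *Oma1* ran from -0.30 to 0.022 on the log2 scale with 1 library left out, and *Stoml2* from -0.21 to 0.053, and at 0.044 under upper-quartile scaling. The number of genes called in all (2) was 121 by DESeq2, 1 by limma voom, 8 without a filter (including *Spg7*), 1 with a covariate for ribosomal RNA and 4 with one for slow fibres, 1796 at an unadjusted p and 1 to 7 with 1 library left out. It was 7 without miDrp1KO A and 1 without E or F. The median of the other proteases was -0.0082 by DESeq2, -0.032 by limma voom, -0.07 and -0.15 with these covariates, and -0.17 to 0.11 with 1 library left out. That of the fission genes was 0.033 under upper-quartile scaling and -0.14 to 0.0073 with 1 library left out. The cause of these moves was not tested. Relative to the skeletal muscle markers, a scale added after seeing the data that put the median of all genes at 0.94, the log2 ratios were 0.67 for *Mfn1*, 0.038 for *Mfn2*, 0.66 for *Opa1*, 0.85 for *Oma1*, 0.38 for *Afg3l2*, 0.87 for *Phb2*, 0.81 for *Parl* and 0.92 for *Stoml2*, all above 0, and 1 for *Yme1l1* and -0.29 for *Spg7*. Without division by length the order of levels changed, with *Yme1l1* next after *Mfn2* and above it in 4 of 6 libraries. *Afg3l2* then stood above *Stoml2* by the mean and above *Oma1* in every library, so the order of *Oma1* over *Afg3l2* was turned. The genes most like *Mfn2* and *Spg7* were the same with a prior count of 0.5. No paired analysis was possible because no letter is shared by the genotypes.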
